A study of Mus musculus with 1753 samples.

Results

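The basement membrane collagens were followed in single stromal cells of mouse skeletal muscle. The set holds 8 genes of the 46517 in the count table, chosen by name and not by any measured value. It comprises the 6 chains of collagen IV (Col4a1 to Col4a6), the collagen XV chain (Col15a1) and the collagen XVIII chain (Col18a1). Each of the 8 symbols matched 1 row of the table.

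Collagen IV is the sheet-forming collagen of every basement membrane. Its chains assemble as trimers, of which the trimer of the Col4a1 and Col4a2 products is found almost everywhere. Trimers with the Col4a3, Col4a4, Col4a5 and Col4a6 products are known from specialised membranes such as those of the kidney glomerulus, the lung and smooth muscle. Collagens XV and XVIII are related proteoglycans that lie at the outer face of the basement membrane, and their C-terminal fragments are known as restin and endostatin. In muscle, a basement membrane wraps each fibre, each capillary, the mural cells (pericytes and vascular smooth muscle cells) that sit on vessels, and nerve bundles. Fibroblasts have none of their own but secrete many of its parts.

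The collagen IV genes lie in head-to-head pairs, each pair being transcribed away from a shared start region. On GRCm38 with GENCODE M21 annotation, Col4a1 (ENSMUSG00000031502) spans chr8:11198423-11312826 on the minus strand and Col4a2 (ENSMUSG00000031503) spans chr8:11312805-11449287 on the plus strand, so their first exons overlap by 22 bases. Col4a4 (ENSMUSG00000067158) lies at chr1:82448423-82586849 on the minus strand and Col4a3 (ENSMUSG00000079465) at chr1:82586921-82722059 on the plus strand, with 71 bases between them. Col4a6 (ENSMUSG00000031273) lies at chrX:141165403-141474076 on the minus strand and Col4a5 (ENSMUSG00000031274) at chrX:141475385-141689234 on the plus strand, with 1308 bases between them. Col15a1 (ENSMUSG00000028339) stands alone at chr4:47208161-47313167 on the plus strand, and Col18a1 (ENSMUSG00000001435) at chr10:77052178-77166548 on the minus strand. All 8 are protein-coding genes. Exons of Col4a3 share 5.65% of their bases with the antisense gene C430014B12Rik, and since the use of strand in the counting is not given in the sources used here, reads there cannot be told apart.

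The shared start regions of the autosomal pairs and the bases before the other starts are shown because pair members are compared throughout and because Col15a1 and Col18a1, the related proteoglycan chains, are set against each other. They come from RefSeq promoter windows on GRCm38.p6 and are printed 5′ to 3′ on the strand named. The stretch for Col15a1 ends at the RefSeq start, which lies upstream of the GENCODE start, and those for Col4a5, Col4a6 and Col18a1 end at the GENCODE start. Capitals mark a match to a GC box (GGGCGG, or CCGCCC on the other strand).
Col4a1/Col4a2, bases shared by the first exons, chr8:11312805-11312826, minus strand: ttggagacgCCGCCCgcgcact
Col4a3/Col4a4, bases between the first exons, chr1:82586850-82586920, minus strand: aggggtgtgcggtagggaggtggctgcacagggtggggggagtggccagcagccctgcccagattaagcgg
Col4a5, chrX:141475285-141475384, plus strand: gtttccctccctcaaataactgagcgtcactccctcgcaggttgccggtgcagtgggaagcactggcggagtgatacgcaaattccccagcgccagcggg
Col4a6, chrX:141474077-141474176, minus strand: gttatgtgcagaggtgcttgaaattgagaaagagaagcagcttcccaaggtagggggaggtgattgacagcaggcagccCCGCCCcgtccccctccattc
Col15a1, chr4:47207912-47208011, plus strand: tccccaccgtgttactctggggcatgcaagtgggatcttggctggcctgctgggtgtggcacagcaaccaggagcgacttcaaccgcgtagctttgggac
Col18a1, chr10:77166549-77166648, minus strand: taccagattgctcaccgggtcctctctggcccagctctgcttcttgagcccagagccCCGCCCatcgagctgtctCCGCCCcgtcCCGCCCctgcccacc

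The 100 bases printed for Col18a1 held 3 GC boxes, those for Col4a6 held 1, and those for Col15a1 and Col4a5 held none. Windows of 300 bases, from 250 before to 50 after the start, were present for 7 of the 8 genes, with 2 windows for Col18a1. Over these windows the G and C content was 74% for Col4a1 and 73.7% for Col4a2, 63.3% for Col4a4, 52.7% for Col4a5, 48.3% for Col4a6, 52.3% for Col15a1, and 63.3% and 59.7% for the 2 starts of Col18a1. A GC box stood in 5 of these 8 windows, those of Col4a1, Col4a2, Col4a5, Col4a6 and the upstream start of Col18a1. It stood in 35.7% of the 32851 windows of all genes, the letters CCAAT (or ATTGG) in 37.4% and TATAAA (or TTTATA) in 13.6%. None of the 8 member windows held TATAAA, and CCAAT stood in those of Col4a1, Col4a2, Col4a5 and the upstream start of Col18a1. No match overlapped another in the printed sequences. The counts are summed per gene and do not separate the starts of Col18a1.

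The cells were 1753 single cells of male mice 10 to 20 weeks old, sorted by flow cytometry from muscle and sequenced by Smart-seq2, with 10 clusters given by the labels. The labels name 5 strains. C57BL6 mice (373 cells) carried no reporter and were sorted with antibodies. Acta2GFP (157 cells), Cspg4dsRED (181 cells) and PdgfrbGFP (630 cells) mice carried a fluorescent reporter for the gene in the name. The PdgfraGFP - PdgfrbGFP pool (412 cells), hereafter the pool, joined mice of a Pdgfra nuclear GFP reporter and of the Pdgfrb reporter. Endothelial cells were gated out with anti-CD31. The tissue label is skeletal muscle, although the extraction text speaks of heart. No label names an animal, so the strain label served as the replicate and as the block, and p-values measure the spread between strain labels, which includes that between their plates and sorts. Values of 5 are given in the order Acta2GFP, C57BL6, Cspg4dsRED, pool and PdgfrbGFP unless named otherwise. The class names follow the study. Clusters 1, 3, 5, 6 and 8 were the endomysial fibroblasts (1116 cells), the endomysium being the layer around single fibres. The paper anticipates fibroadipogenic progenitors and perivascular fibroblasts among them as well, and leaves this to further analysis. Cluster 4 was the paramysial class (60 cells), and clusters 2 and 9 the perimysial (328 cells, in the sheaths of fibre bundles). Cluster 10 was a further fibroblast group (62 cells, in 3 strains). The paper defines it by Cspg4, Pdgfra and Ngfr and places it at the margin of nerve fibres. Cluster 7 held the mural cells (187 cells).

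Levels are scaled counts, that is counts per 500000 counts of mouse genes in a cell, averaged over the cells of a class within a strain. Total counts per cell ran from 46097 to 1055869 with a median of 258251, and the class medians ran from 156959 in mural cells to 595321 in paramysial cells. The classes were set against marker lists. The summed level of 11 mural markers was 18352 to 26992 CPM (counts-per-million) in mural cells and at most 1511 in the 4 fibroblast classes, and Myh11, the smooth muscle myosin, reached 100 scaled counts in 90.8% of mural cells (mean over strains). Pdgfra, the usual fibroblast marker, reached that level in no mural cell, in 71.96% of endomysial cells and in only 2.82% of perimysial cells. Of 10 endothelial markers, mural cells summed to 472 to 773 CPM against 52.5 to 294 in endomysial cells. Most of the mural value was Esam (mean 233 scaled counts), while the defining markers Pecam1 and Cdh5 had means of 13.6 and 0.668. The 8 immune markers summed to 1361 CPM in the 9 mural cells of C57BL6, of which 4 carried 3 or more of them, with a median of 7.03 over the 5 strains. Their part in the results was not tested beyond leaving out cells that held 3 or more endothelial or immune markers, which removed 250 of the 302 endomysial cells and 9 of the 11 mural cells of the pool. A marker was taken as held at a level far below the 100 scaled counts used for detection. The endothelial list includes Esam, so leaving a cell out does not mark it as endothelial. The clusters were drawn by the authors from these same counts, so the tests describe the clusters and are not independent evidence for them.

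Compared per exon length, Col4a1 and Col4a2 were the main collagen IV chains in every class. Together they gave 84.2% to 99.3% of the collagen IV counts per kilobase in each class and strain. In endomysial cells Col4a1 stood at 107 ± 31.8 (SD, n = 5 strains) CPM per kilobase of merged exons and Col4a2 at 98.2 ± 25.6. Col15a1 (27.0 ± 7.54) and Col18a1 (11.4 ± 4.02) followed, and Col4a5 (6.32 ± 5.69), Col4a4 (4.66 ± 3.06), Col4a3 (3.52 ± 0.684) and Col4a6 (0.568 ± 0.66) were lower. The intervals of mean ± SD overlapped for Col4a1 and Col4a2, and for Col4a3, Col4a4 and Col4a5, and were apart for Col15a1 and Col18a1. In mural cells the per-length order was Col4a2 (71.6 ± 19.8), Col4a1 (54.1 ± 20.2) and Col18a1 (45.6 ± 17.3), with Col4a3 (0.166 ± 0.265) and Col4a4 (0.0557 ± 0.0358) at the bottom. Those of the 3 leading genes overlapped. In cluster 10 the leading gene was Col15a1 (118 ± 64.9, n = 3), ahead of Col18a1 (62.1 ± 30.2), Col4a1 (42.7 ± 16.1) and Col4a2 (41.7 ± 27.7). All these are levels, not differences.

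**Figure D1:**
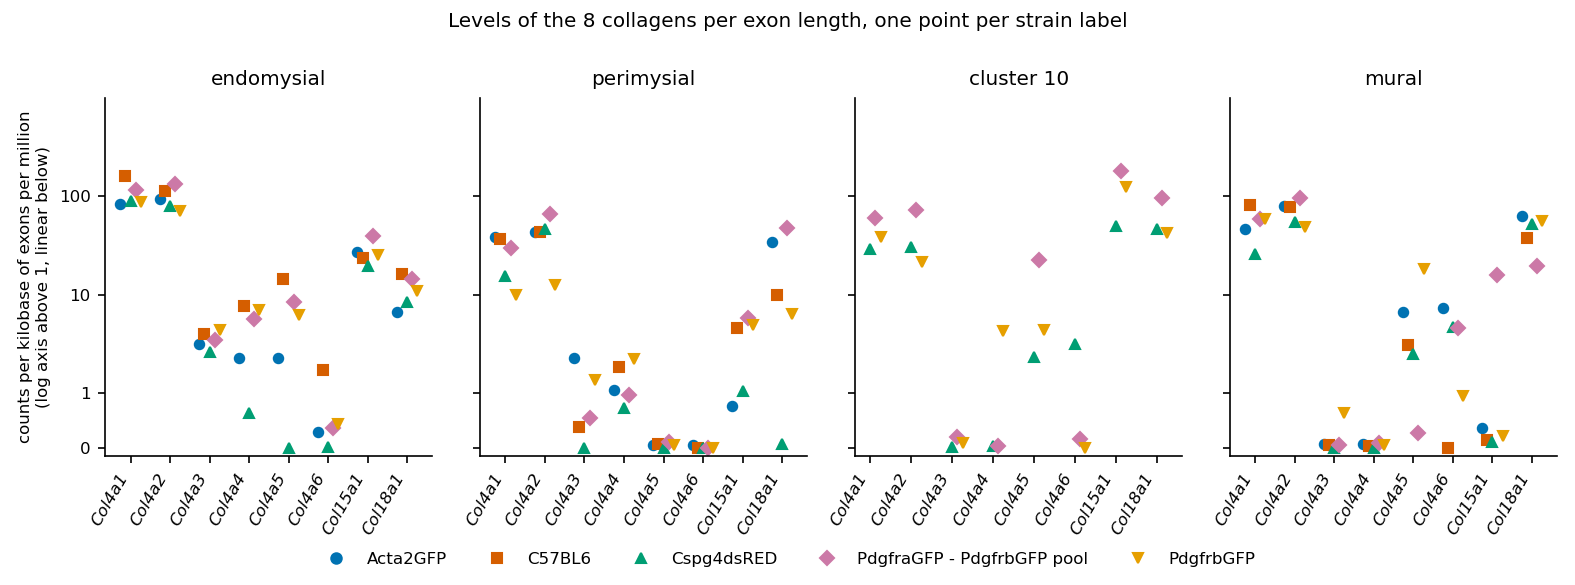
CPM per kilobase of merged exons for the 8 genes in 4 classes, 1 point per strain label with 3 or more cells (log axis above 1, linear below). Col4a1 and Col4a2 stand near 100 in endomysial cells, Col15a1 leads in cluster 10 with a mean of 118, and Col4a3 and Col4a4 lie below 1 in mural cells.

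Col4a1 and Col4a2 encode the chains of the common collagen IV trimer, and both were present in every class. Mean scaled counts of Col4a1 in endomysial cells were 312, 625, 360, 461 and 339. In mural cells they were 153, 313, 83.8, 407 and 195, lower in each strain, though the groups overlapped. Col4a2 stood at 302, 381, 284, 467 and 238 in endomysial cells and at 283, 298, 208, 544 and 179 in mural cells, with the pool higher in mural cells by this mean over cells and lower by summed counts. In perimysial cells Col4a1 (136, 135, 41.1, 104 and 44.3) lay below the endomysial cells of every strain, and so did Col4a2 (144, 145, 107, 205 and 50.1). The order of Col4a1 over classes was paramysial (445 ± 276, SD, n = 4), endomysial (419 ± 128, n = 5), mural (231 ± 129), cluster 10 (149 ± 38.1, n = 3) and perimysial (92.2 ± 46.9), and neighbours in this order overlapped in mean ± SD. For Col4a2 it was the same order (348 ± 221, 335 ± 90.3, 302 ± 144, 132 ± 70.4 and 130 ± 56.9), again with overlap between neighbours.

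Tested on counts summed per class and strain with edgeR, Col4a1 was 4.22-fold lower in perimysial than in endomysial cells (log2 fold change −2.08, SE 0.27, adjusted p = 0.00441, lower in 5 of 5 strains). Col4a2 was 2.4-fold lower (−1.27, SE 0.24, adjusted p = 0.0241, 5 of 5 strains). The Col4a2 call was lost without Acta2GFP (adjusted p = 0.0758), without C57BL6 (0.106), without the pool (0.0808) and without the strain block (0.115), and the log2 fold change then lay between −1.34 and −1.12. Between mural and all fibroblasts neither gene passed the test. The difference was −0.53 for Col4a1 (95% interval −1.04 to −0.02, adjusted p = 0.168) and −0.04 for Col4a2 (−0.49 to 0.41, adjusted p = 0.936). Against endomysial cells alone Col4a1 differed by −0.90 (−1.49 to −0.32, adjusted p = 0.0513), and it passed without C57BL6 (−1.02, adjusted p = 0.040). Against perimysial cells Col4a1 (1.11, adjusted p = 0.110) and Col4a2 (0.90, adjusted p = 0.121) were higher in mural cells of 5 of 5 strains without passing.

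**Figure D2:**
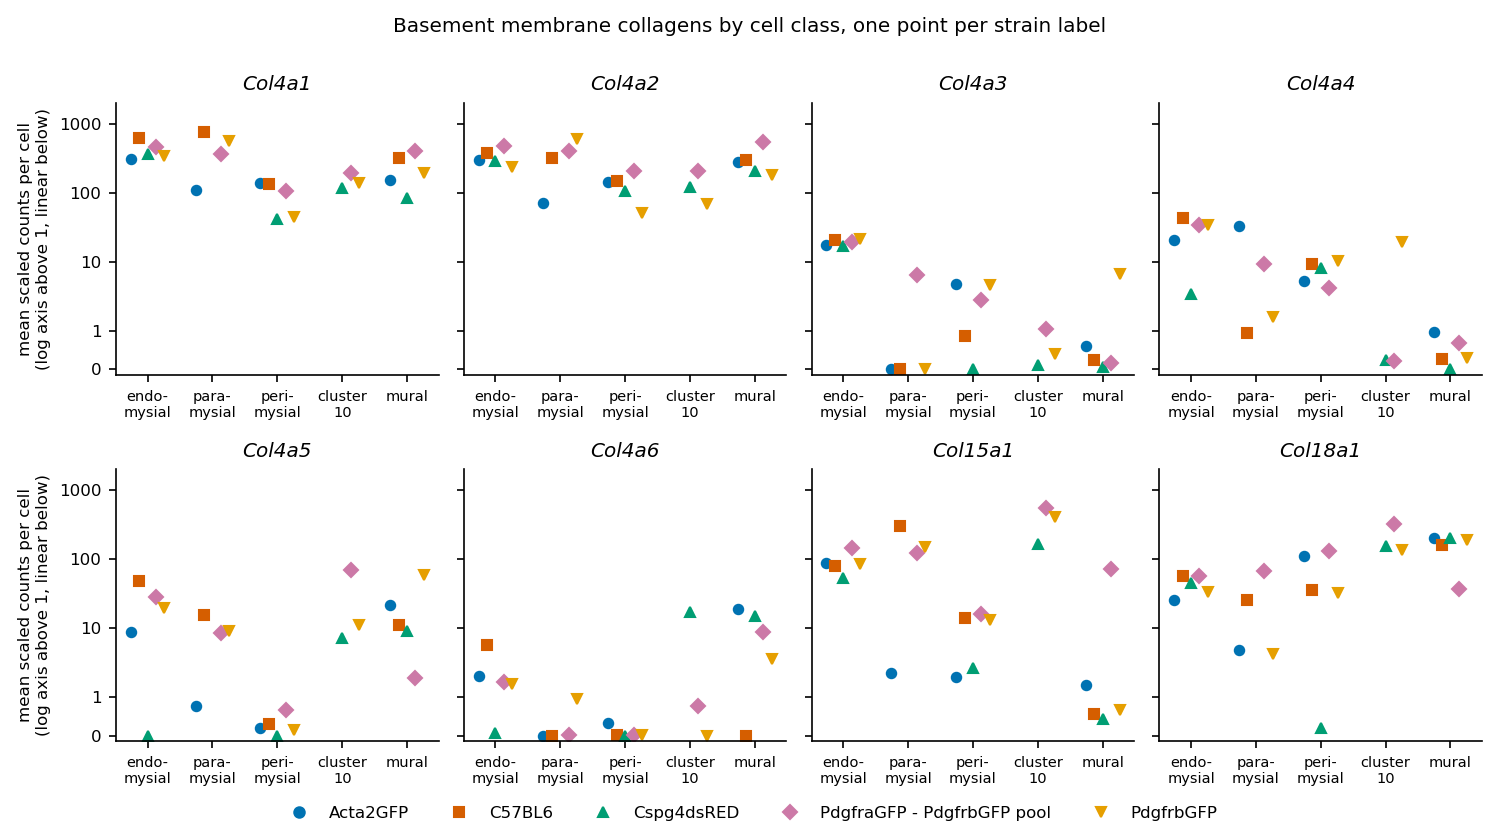
Mean scaled counts per cell (counts per 500000) of each gene in 5 classes, 1 point per strain label with 3 or more cells, on a log axis above 1 and a linear one below. Col4a1 and Col4a2 stay above 40 in every class, Col4a3 and Col4a4 fall below 1 in most mural points, and Col15a1 is highest in cluster 10.

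Col4a3 and Col4a4, the chains of the kidney and lung type trimer, were present at low levels in endomysial fibroblasts and nearly absent from mural cells. Col4a3 in endomysial cells stood at 17.5, 20.7, 16.8, 19.2 and 21.3 scaled counts. Of the Cspg4dsRED value (16.8), 81.0% came from 1 of 51 cells, and the mean was 3.25 without that cell. In mural cells it stood at 0.612, 0.249, 0.0636, 0.156 and 6.76. The last value, in PdgfrbGFP, came to 95.6% from 1 cell of 239 scaled counts, and was 0.305 without it. Col4a4 in endomysial cells stood at 21.1, 42.8, 3.42, 34.0 and 33.7, with Cspg4dsRED far below the other strains. In mural cells it was 0.974, 0.266, 0, 0.693 and 0.287. A count of 0 in 10585966 counts of Cspg4dsRED allows up to 0.283 CPM, counting error only. None of 187 mural cells reached 100 scaled counts of Col4a4, which allows a share of up to 1.6%, against 132 of 1116 endomysial cells (11.8%).

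Against all fibroblasts Col4a4 was 67-fold lower in mural cells (−6.07, SE 0.98, adjusted p = 0.00413) and Col4a3 31.4-fold lower (−4.97, SE 1.07, adjusted p = 0.015), each in 5 of 5 strains. Against endomysial cells the differences were −6.35 (SE 1.04, adjusted p = 0.0039) and −5.49 (SE 1.18, adjusted p = 0.0151). The groups did not overlap in summed counts for either gene in either comparison. No share over all genes is given here, so this is a description only. For Col4a3, the endomysial value of Cspg4dsRED and the mural value of PdgfrbGFP came mainly from the single cells named above. The Col4a3 call was lost without Acta2GFP (−4.93, adjusted p = 0.0639 against all fibroblasts, and −5.51, adjusted p = 0.0649 against endomysial cells) and with equal numbers of cells drawn per class and strain (−3.58, adjusted p = 0.128). With cells that held 3 or more endothelial or immune markers left out, which left 4 strains, neither call was kept against all fibroblasts (Col4a4 −6.67, adjusted p = 0.0618, and Col4a3 −4.06, adjusted p = 0.244) or against endomysial cells (−6.95, 0.0774, and −4.48, 0.274). Against perimysial cells Col4a4 was lower by −4.93 (SE 1.34, adjusted p = 0.0479). That call was lost in 11 of its 14 alternatives, among them without each strain in turn, with adjusted p between 0.0674 (without Cspg4dsRED) and 0.178 (without PdgfrbGFP). Perimysial and endomysial cells differed by −2.58 for Col4a3 (adjusted p = 0.236) and −1.38 for Col4a4 (adjusted p = 0.265), neither called.

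Col4a5 and Col4a6, the X-linked pair, varied widely between strains. Col4a5 stood at 8.66, 48.7, 0, 28.6 and 19.3 scaled counts in endomysial cells and at 21.6, 11, 9.02, 1.91 and 58.2 in mural cells, in no shared order. Perimysial cells held at most 0.681 in any strain, and none of the 328 reached 100 scaled counts (up to 0.915%). In Cspg4dsRED the 51 endomysial cells had no Col4a5 count in 6328964, which allows up to 0.474 CPM. Col4a6 stood at 18.98, 0, 14.9, 8.69 and 3.58 in mural cells and at 2.00, 5.68, 0.0682, 1.67 and 1.54 in endomysial cells, so that it was higher in mural cells of 4 strains and had no count in those of C57BL6 (9 cells). At 100 scaled counts it was seen in 7 of 187 mural cells (3.74%) and 12 of 1116 endomysial cells (1.08%), and in no perimysial or paramysial cell.

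Perimysial cells had less Col4a5 than endomysial cells by 88.1-fold (−6.46, SE 0.77, adjusted p = 0.005), lower in 4 of 5 strains with the fifth, Cspg4dsRED, at 0 in both classes. Without C57BL6 the call was lost (−6.09, adjusted p = 0.055). Mural cells had more Col4a5 than perimysial cells (6.13, SE 1.55, adjusted p = 0.0361, 5 of 5 strains), a call that was lost without Acta2GFP (5.87, adjusted p = 0.142), C57BL6 (6.39, 0.0793), Cspg4dsRED (5.83, 0.057) or PdgfrbGFP (5.48, 0.194). The difference of mural cells from all fibroblasts was 0.40 for Col4a5 (95% interval −2.28 to 3.08, adjusted p = 0.878) and 2.30 for Col4a6 (−1.47 to 6.08, adjusted p = 0.432), so the intervals reached several-fold in either direction. Col4a6 did not pass the filter on low counts against perimysial cells. In the 4 alternatives that tested it, it was called higher in mural cells (6.87 to 7.75, adjusted p 0.0131 to 0.0356). Perimysial cells held only 6 counts of Col4a6 in cluster 2 and 2 in cluster 9. Those calls therefore rest on the mural counts, and no conclusion is drawn from them.

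Col15a1 separated mural cells from most fibroblasts. In all fibroblasts it stood at 52.5, 53.4, 85.2, 149 and 79.0 scaled counts. In mural cells it was 1.51, 0.553, 0.435, 72.1 and 0.667, so that the pool stood apart. Of the pool's mural value 94.4% came from 1 of its 11 cells, with 749 scaled counts, and the mean was 4.41 without that cell. In endomysial cells Col15a1 stood at 87.1, 78.5, 53.6, 146 and 84.7, and in perimysial cells at 1.97, 14.1, 2.68, 16.1 and 12.9, below the endomysial cells of every strain. Cluster 10 had the highest values, 168 in Cspg4dsRED, 550 in the pool and 410 in PdgfrbGFP. The order was cluster 10 (376 ± 194, n = 3), paramysial (143 ± 121, n = 4), endomysial (90.0 ± 34.2), mural (15.05 ± 31.9) and perimysial (9.55 ± 6.69). Of the neighbours, endomysial and mural cells alone were apart in mean ± SD.

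Col15a1 was 54.2-fold lower in mural cells than in all fibroblasts (−5.76, SE 1.06, adjusted p = 0.00755) and 62.3-fold lower than in endomysial cells (−5.96, SE 1.05, adjusted p = 0.00552), in 5 of 5 strains each. The calls held without each strain in turn, with −6.64 (adjusted p = 0.0021) against all fibroblasts without the pool. Without the strain block the differences were −2.98 (adjusted p = 0.125) and −3.01 (adjusted p = 0.123). Perimysial cells were 9.23-fold lower than endomysial cells (−3.21, SE 0.50, adjusted p = 0.0101, 5 of 5 strains), a call kept in all 14 alternatives. Mural and perimysial cells were not told apart (−2.61, 95% interval −5.74 to 0.52, adjusted p = 0.338). Mural cells were 175-fold lower than cluster 10 (−7.45, SE 1.42, adjusted p = 0.0237, 3 of 3 strains), and −4.60 without the block (adjusted p = 0.123).

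Against all fibroblasts, Col18a1 in mural cells went the other way from Col15a1 in 4 strains. In mural cells it stood at 201, 160, 199, 37.1 and 189.8 scaled counts, against 53.7, 47.7, 75.4, 75.6 and 34.6 in all fibroblasts. In endomysial cells of Cspg4dsRED (44.4), 72.5% came from 1 of 51 cells, and the mean was 12.5 without it. It was higher in mural cells of 4 strains and lower in those of the pool. At 100 scaled counts it was seen in 84 of 187 mural cells (44.9%) and in 175 of 1116 endomysial cells (15.7%). Cluster 10 was at a like level, with 157 in Cspg4dsRED, 325 in the pool and 135 in PdgfrbGFP. The order was cluster 10 (206 ± 104, n = 3), mural (158 ± 69.2), perimysial (62.0 ± 56.1), endomysial (43.3 ± 13.8) and paramysial (25.6 ± 29.9, n = 4), with overlap in mean ± SD between all neighbours.

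Col18a1 was 2.88-fold higher in mural cells than in all fibroblasts (1.52, SE 0.39, adjusted p = 0.0325). This call was lost in 9 of 15 alternatives, among them without Acta2GFP (1.39, adjusted p = 0.117), C57BL6 (1.43, 0.0781), Cspg4dsRED (1.61, 0.0656) or PdgfrbGFP (1.26, 0.125). Without cells that held 3 or more endothelial or immune markers it was 2.18 (adjusted p = 0.040). Against endomysial cells Col18a1 was 4.35-fold higher (2.12, SE 0.43, adjusted p = 0.0117), in 5 of 5 strains by summed counts (the mean over cells was lower in the pool, 37.1 against 56.1). The call was lost without Acta2GFP (1.84, adjusted p = 0.0506) or PdgfrbGFP (1.99, adjusted p = 0.0579). The ratio of Col15a1 to Col18a1 per exon length was 1.44 to 4.07 in endomysial cells of the 5 strains, and 0.00226 to 0.00575 in mural cells of 4 strains, with 0.810 in the pool.

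**Figure D3:**
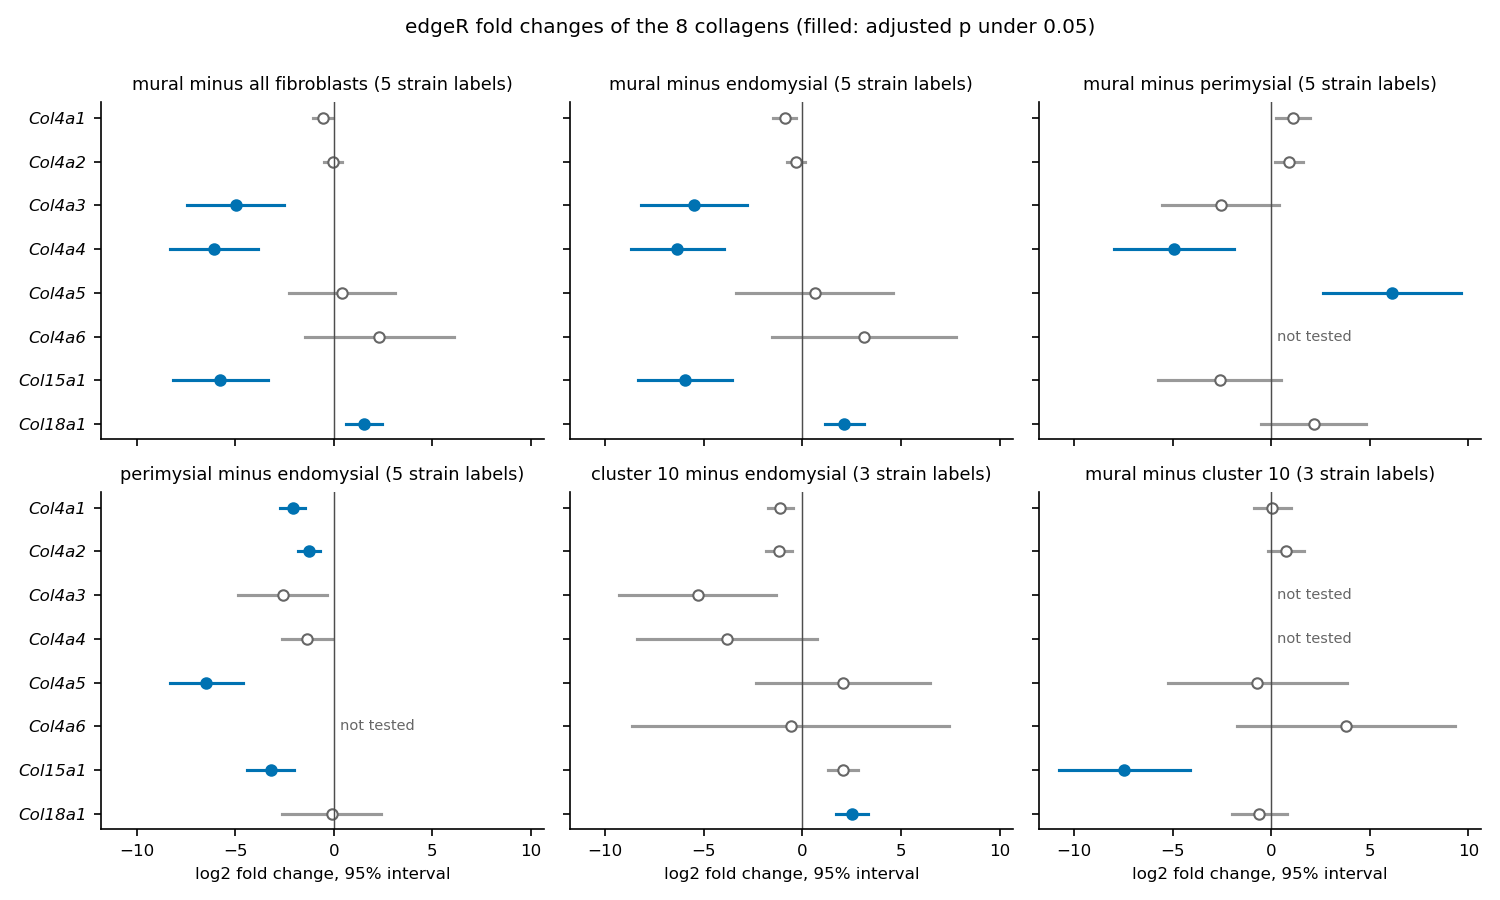
Log2 fold changes of the 8 genes with 95% intervals in 6 comparisons of counts summed per class and strain (edgeR, strain as block), with filled points for adjusted p under 0.05. Mural cells lie below fibroblasts for Col4a3, Col4a4 and Col15a1 and above them for Col18a1, and perimysial cells lie below endomysial cells for Col4a1, Col4a2, Col4a5 and Col15a1.

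In counts, 3 of the 8 genes were called lower and 1 higher in mural cells than in all fibroblasts, where 9.27% of 13880 genes were called lower and 6.15% higher. The median log2 fold change of the 8 was −0.28, against −0.46 over all genes. Against endomysial cells it was again 3 lower and 1 higher, with 7.42% and 5.96% of 13329 genes. Against perimysial cells 1 of 7 tested was lower (5.5% of 12477 genes) and 1 higher (5.02%). Between perimysial and endomysial cells 4 of 7 were lower and none higher, with 3.26% lower and 2.32% higher among 14121 genes and a median of −2.08 against −0.19.

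Genes that process and accompany these collagens were taken from 3 lists. Over all 13880 genes tested, 9.27% were lower and 6.15% higher in mural cells than in all fibroblasts (median −0.46). Of 15 genes of collagen IV assembly, 7 were lower and none higher (median −1.30). They included P4ha1 (−2.33, SE 0.40, adjusted p = 0.00555), P4ha2 (−1.86, SE 0.52) and P4ha3 (−5.96, SE 1.26), the catalytic subunits of collagen prolyl hydroxylase. P4ha3 counts were low, with a mean log2 CPM of −3.04 in mural cells and 2.34 in fibroblasts. Of 20 other basement membrane genes, 18 were tested, 8 were lower and 4 higher (median −1.35). Tinagl1, a basement membrane glycoprotein, was higher by 8.96 (SE 0.62, adjusted p = 0.000106), as was Lama5, a laminin chain of vessels (6.95, SE 0.50), and Agrn, the heparan sulphate proteoglycan agrin (2.11, SE 0.59). Smoc2, a matricellular calcium-binding protein (−5.53, SE 0.48), Nid2, which links laminin to collagen IV (−5.41, SE 0.71), and Lamb1, a laminin chain (−5.14, SE 1.37, 4 of 5 strains), were lower. Of 17 receptors and proteases, 16 were tested, 8 were lower and 2 higher (median −1.81). The 2 that were higher, Itga1 (2.58, SE 0.42) and Itgb1 (1.26, SE 0.21), encode the chains of the α1β1 integrin that binds collagen IV. Mmp2 (−5.87, SE 0.47), which degrades collagen IV, Ctsk (−4.10, SE 0.75), the collagenolytic cathepsin K, and Itga2 (−6.95, SE 1.48), another collagen-binding integrin chain, were lower. Itga2 counts were low, with a mean log2 CPM of −3.6 in mural cells and 3.4 in fibroblasts.

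Against the endomysial cells alone the lists gave 6 of 15 lower, 9 lower and 2 higher of 17, and 7 lower and 2 higher of 15. Over all genes tested, 7.42% were lower and 5.96% higher. Against the perimysial cells the lists gave 5 of 14 lower, 3 lower and 3 higher of 17, and 6 lower and 1 higher of 15. Over all genes tested, 5.5% were lower and 5.02% higher. Vwa1, a von Willebrand domain protein of basement membranes (−3.95, SE 0.54), Lama2, the laminin chain of the muscle fibre (−3.26, SE 0.69), and Serpinh1, the collagen chaperone (−2.15, SE 0.36), were among those lower in mural than perimysial cells. In perimysial against endomysial cells, 3.26% of all genes tested were lower and 2.32% higher (median −0.19). Of 18 other basement membrane genes, 9 were lower and 1 higher (median −1.83). Among them Lamb1 (−5.09, SE 0.46) and Smoc2 (−4.24, SE 0.32) were lower, while Lama3 was higher (7.14, SE 1.11, 4 of 5 strains). Of 15 assembly genes, P4ha1 (1.51, SE 0.14) and Sparc (0.84, SE 0.13), which binds collagen IV, were higher and P4ha2 was lower (−3.83, SE 0.64). Of 16 receptors and proteases 4 were higher, among them Gpc1 (3.34, SE 0.52), Ctsk (1.09, SE 0.12) and Itgb1 (0.54, SE 0.12), and 3 were lower, Bmp1 (−1.32, SE 0.26), Itga5 (−1.22, SE 0.25) and Ddr2 (−0.88, SE 0.20).

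The endomysial fibroblasts were not alike among themselves. Cluster 3 had the most Col4a1 (376 in Acta2GFP, 910 in C57BL6, 618 in the pool and 531 in PdgfrbGFP), and cluster 1 had less in each of these strains (206, 247, 158 and 82.5). Col15a1 was nearly absent from cluster 1, at 0.845, 4.72, 6.06 and 3.60, and stood at 99.7, 137, 217 and 128 in cluster 3. These values did not overlap between the clusters for either gene, with no share over all genes given here. Means over strains of Col4a1 were 173 ± 70.7 in cluster 1 (SD, n = 4), 374 ± 115 in cluster 6, 381 ± 222 in cluster 8 and 609 ± 225 in cluster 3. For Col4a2 they were 94.95 ± 38.5, 322 ± 109, 323 ± 98.8 and 456 ± 139, for Col15a1 3.81 ± 2.21, 71.7 ± 16.03, 95.8 ± 21.9 and 145 ± 50.4, and for Col18a1 16.4 ± 4.80, 37.1 ± 14.1, 42.3 ± 20.2 and 62.1 ± 28.3. The 4 genes thus had their lowest mean in cluster 1 and their highest in cluster 3, and clusters 6 and 8 overlapped in mean ± SD. Cluster 5 (31 cells) was low in Col15a1 (10.51 ± 16.9, n = 3) and Col4a2 (95.7 ± 47.1) as well.

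A joint edgeR test of clusters 1, 3, 6 and 8 called 4 of the 8 genes, where 5.33% of 15575 genes were called. They were Col4a1 (F = 44.5, adjusted p = 0.000205), Col15a1 (F = 44.3, adjusted p = 0.000205), Col4a2 (F = 35.4, adjusted p = 0.000427) and Col18a1 (F = 12.4, adjusted p = 0.0161). The first 3 calls were kept in all 14 alternatives. Col18a1 was lost without C57BL6 (adjusted p = 0.104), without the pool (0.180), without PdgfrbGFP (0.209), without the block (0.0901), with cells weighted alike (0.0647) and without marker-positive cells (0.0979), which is 6 of 14 alternatives. Col4a5 had a mean of 3.96 ± 6.15 in cluster 6 and 47.0 ± 26.8 in cluster 8 (adjusted p = 0.0805, and 0.0483 without Acta2GFP). Col4a4 (adjusted p = 0.0639) was called without Acta2GFP (0.0348). Of the lists, 5 of 15 assembly genes, 10 of 18 other basement membrane genes and 4 of 16 receptors and proteases were called.

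Within the perimysial cells, the 59 cells of cluster 9 had more Col18a1 than the 269 of cluster 2 in each of the 4 strains with 3 or more cells of both. The levels were 132, 103, 313 and 120 in cluster 9 and 68.6, 29.9, 71.3 and 16.9 in cluster 2, in the order Acta2GFP, C57BL6, pool and PdgfrbGFP. Col4a1 also had the higher mean in cluster 9 (201 ± 115, against 78.2 ± 44.2), and Col15a1 did not (4.65 ± 3.30, against 10.8 ± 8.18). This comparison was not tested.

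**Figure D4:**
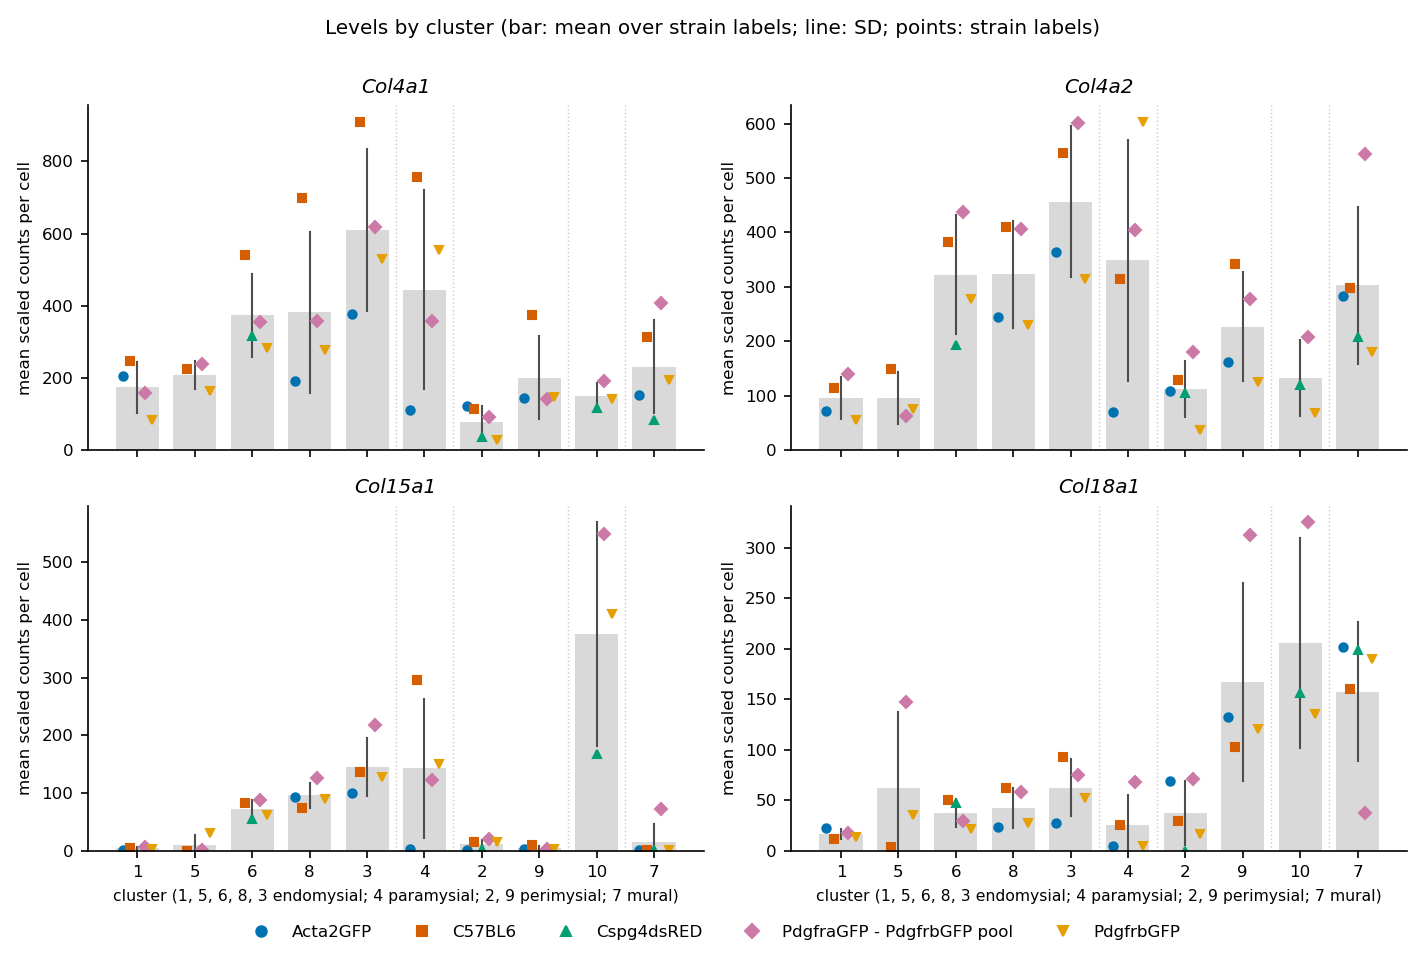
Mean scaled counts per cell of Col4a1, Col4a2, Col15a1 and Col18a1 in the 10 clusters, as points for strain labels with 3 or more cells, a bar for their mean and a line for the SD. Among the endomysial clusters all 4 genes are lowest in cluster 1 and highest in cluster 3, Col15a1 reaches 376 in cluster 10, and Col18a1 is high in clusters 9, 10 and 7.

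Cluster 10 had the highest mean level of Col15a1, and of Col18a1 when all cells were kept. Without cells that held 3 or more endothelial markers, the Col18a1 mean was 152 ± 49.3 in cluster 10 and 192 ± 71.7 in mural cells. With all cells, Col18a1 was 5.67-fold higher than in endomysial cells (2.50, SE 0.33, adjusted p = 0.0469, 3 of 3 strains). It was the only one of 8 genes called, where 0.265% of 12455 genes were called higher and 0.177% lower. The call was lost without the pool (2.38, adjusted p = 0.218), without PdgfrbGFP (2.73, 0.203), without the block (2.54, 0.0667), with cells weighted alike (2.24, 0.0713), with 10 or more cells per unit (2.73, 0.203) and without marker-positive cells (2.15, 0.306), which is 6 of 12 alternatives. Col15a1 was 4.17-fold higher (2.06, SE 0.31, adjusted p = 0.0678, 3 of 3 strains). It was called in 5 of 12 alternatives, among them without Cspg4dsRED (2.26, adjusted p = 0.000415). Col4a1 (−1.13, SE 0.27, adjusted p = 0.228) and Col4a2 (−1.21, SE 0.28, adjusted p = 0.218) were lower in 3 of 3 strains without passing. These values stand against a median of −0.41 over all genes, which was −0.27 with another scaling (relative log expression).

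Of the basement membrane list, Vwa1 was higher in cluster 10 than in endomysial cells (2.65, SE 0.33, adjusted p = 0.0395), and no gene of the other lists was called. Over the 3 strains of cluster 10, the endothelial markers summed to between 23.3 and 927 CPM, with a median of 38.0. Cells with 3 or more endothelial or immune markers were 6 of 37 in Cspg4dsRED, 12 of 17 in the pool and 2 of 8 in PdgfrbGFP. The 8 glial markers summed to 167 to 429 CPM (9.60 to 54.7 in endomysial cells). The 6 perineurial markers summed to 356 to 685 CPM (57.6 to 593 in endomysial cells). Of the glial list only the Schwann cell gene Sox10 is given by itself, at a mean of 0.204 scaled counts. Most of the glial sum came from other genes of that list, which are not listed here, so Sox10 does not stand for the list. Of the 8 glial markers, 4 to 6 had a count in each strain of cluster 10. The part of these markers in the result was not tested beyond leaving out marker-positive cells. Mural cells and cluster 10 differed in Col18a1 by −0.61 (95% interval −2.001 to 0.78, adjusted p = 0.714), which did not pass. Of 6 genes tested there, Col15a1 alone was called, where 3.22% of 11351 genes were lower and 2.84% higher in mural cells. Of the other basement membrane genes 9 of 15 were lower in mural cells, among them Vwa1 (−7.15, SE 0.46) and Lamb1 (−7.02, SE 1.12), and 2 were higher, Tinagl1 (9.14, SE 0.78) and Lama5 (7.23, SE 1.59). Further, 3 of 14 assembly genes and 5 of 14 receptors and proteases were lower, with Mmp2 at −6.99 (SE 0.64) and Mmp14, which activates it, at −2.85 (SE 0.47).

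Paramysial cells were few outside the pool (46 of 60 cells). Their Col15a1 was 2.25 in Acta2GFP, 296 in C57BL6, 123 in the pool and 151 in PdgfrbGFP. By edgeR none of the 8 genes was called against endomysial cells, where 0.0757% of 14533 genes were called higher and 0.0206% lower. At an unadjusted edgeR p under 0.05 there were 2 of the 8. No share over all genes is given here, so nothing is read from that count. DESeq2 called 2 of the 8, Col4a3 and Col4a6. It also called far more genes over the whole table than edgeR did, as given in the closing section. The intervals were wide, from −0.81 to 0.72 for Col4a1 and −2.14 to 2.07 for Col15a1. Col4a3 had counts in the pool only, at 6.43 scaled counts, of which 89.9% came from 1 of 46 cells (0.661 without it). No gene of the 3 lists was called.

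The soleus, a slow muscle, and the gastrocnemius, a mixed one, were kept apart in the pool and in PdgfrbGFP, and in the pool each muscle was a plate of its own. In endomysial cells Col18a1 was 69.4 in gastrocnemius and 32.1 in soleus in the pool (194 and 108 cells), and 36.7 and 24.6 in PdgfrbGFP (112 and 90 cells). Col4a1 was 513 and 368, and 386 and 356. Both were lower in soleus in 2 of 2 strains, by −1.13 (SE 0.23) and −0.48 (SE 0.16), and with 2 strains none of 16337 genes was called (0% in either direction, 807 at an unadjusted p under 0.05, and 115 with DESeq2, none of them among the 8). Of the 8 genes 3 had an unadjusted p under 0.05, and no gene of the 3 lists was called. The adjusted p was 0.967 for both.

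Presence of pair members in the same cell is given as a description, since cells share plates and depth. With each cell thinned to 50000 reads, Col4a1 and Col4a2 were both present in 81.7% of 1114 endomysial cells and 57.8% of 187 mural cells. Col4a3 and Col4a4 were both present in 10.4% of endomysial cells, and Col4a5 and Col4a6 in 1.62%. Col4a4 was found in 50.7% of endomysial cells with Col4a3 and in 21.9% of those without it. Col4a6 was found in 7.69% of those with Col4a5 and 1.25% of those without. Col15a1 was found in 63.1% of endomysial and 9.63% of mural cells, and Col18a1 in 34.2% and 62.6%. Of mural cells, 7.49% had both.

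Over 40 units of cluster and strain, the log2 CPM of each gene was set against 4208 genes. Col4a1 and Col4a2 had a Pearson r of 0.76, Col4a3 and Col4a4 of 0.57 and Col4a5 and Col4a6 of 0.50, while Col15a1 and Col18a1 had 0.07. The units share strains, plates and cells of nearby clusters, so these are descriptions. Genes outside the set with the most similar pattern were Itih5, Col6a3, Hmcn2, Adh1 and Lamc1 for Col4a1 (r = 0.64 to 0.55), and Smoc2, App, Cxcl14, Rgmb and Adam19 for Col15a1 (0.72 to 0.67). For Col18a1 they were St5, Gnb4, Phf5a, Appbp2 and N4bp2l2 (0.73 to 0.68), and for Col4a5 Errfi1, Ggt5, C1s1, Gstt1 and Gm16567 (0.70 to 0.67). Col4a4 was most like Abca8b, Icam1, C7, Ptgfrn and Igsf10 (0.68 to 0.64). Col4a2 was most like Sparcl1 (0.59), Col4a3 like Aldh1a2 (0.63) and Col4a6 like Ndrg2 (0.54).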

How the data were processed

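Single cells of mouse skeletal muscle were sequenced by Smart-seq2 with 50-base single reads. The deposited values are raw counts per gene, which the authors made by alignment to GRCm38 (mm10) with TopHat2 and Bowtie and by counting with featureCounts. There are no molecular identifiers, so intervals and limits cover counting error only. The annotation release and strand setting are not given in the sources used here. Of 1754 columns, 1 without a label was not used. Spike-ins (1.31% of counts) were left out, and 4 cells lay under 50000 counts.

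Counts were summed per class and strain label with 3 or more cells and tested with edgeR 4.0.16 (quasi-likelihood, TMM, filterByExpr, strain as block) in R 4.3.3, with Benjamini-Hochberg adjustment over all genes tested and calls at an adjusted p under 0.05. The test was checked on simulated counts. DESeq2 1.42.0 was an alternative. The strain block comes from the labels, and the correlation of same-strain deviations was 0.0295 to 0.299. Up to 3 called genes per list and direction were named. Some items that this rule or the marker lists hold are not reported here. The genes, lists and tests were chosen with earlier results of these data known. Leaving out marker-positive cells and a filter by the blocked design were added after the data were seen.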

Additional observations from a re-analysis of the deposited data

Results flagged for a closer look

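Log2 CPM of each gene was examined for a strain that stood apart in 31 groups of 4 or 5 strains (Dixon's criterion), and 9 were picked out, where chance gives about 5% of groups. In mural cells Col4a4 was lowest in Cspg4dsRED (−4.32, next −0.76), Col4a6 was lowest in C57BL6 (−4.32, next 2.95) and Col15a1 was highest in the pool (6.59, next 1.16), the last resting on 1 cell. Col4a5 was lowest in Cspg4dsRED in endomysial cells (−4.32, next 3.89) and in perimysial cells (−4.48, next −1.38). Col4a2 in perimysial cells was lowest in PdgfrbGFP (6.45, next 8.07). In paramysial cells Col4a3 was highest in the pool (1.60, the others −4.52) and Col15a1 was lowest in Acta2GFP (2.21, next 7.95). Col4a6 was highest in PdgfrbGFP (0.89, next −3.70 in the pool). Its PdgfrbGFP value came from 1 of 4 cells, and the 60 paramysial cells held 2 counts of Col4a6. Values of −4.32, −4.48 and −4.52 are those of a sum of 0 counts with a prior count of 2, while −3.70 is not.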

How the results depend on the processing

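The number of the 8 genes called moved by over 1.5 times in the alternatives named here, given with the range over strains left out, and the cause was not tested. Under the others it stayed within 1.5 times. Calls over all genes are given below for the main test and DESeq2 only. A rise or fall in the counts is therefore not read as a result about the 8 genes. For mural cells against all fibroblasts (4) it was 2 with equal numbers of cells, 2 without marker-positive cells and 2 to 4 with a strain left out. Against endomysial cells (4) it was 2 without marker-positive cells and 2 to 5 with a strain left out. Against perimysial cells (2) it was 1 with 10 or more cells per unit, with plates as units or with relative log expression factors, 0 without marker-positive cells, and 0 to 1 with a strain left out. For perimysial against endomysial cells (4) it was 2 to 5 with a strain left out. For paramysial cells (0) DESeq2 called 2. For cluster 10 against endomysial cells (1) it was 0 with 10 or more cells per unit, with cells weighted alike or with no replicate block, 2 with plates, 3 with no filter, 4 with DESeq2, and 0 to 2 with a strain left out. For mural cells against cluster 10 (1) it was 0 with no replicate block. Among endomysial clusters (4) DESeq2 called 7, and 3 to 6 were called with a strain left out. The cluster with the largest share of cells at 100 scaled counts was also first for 5 of 8 genes with detection at 20 scaled counts and for 5 after thinning. The cluster with the highest mean was also first for 6 of 8 without cells that held 3 or more endothelial markers, the exceptions being Col18a1 (cluster 10 to 7) and Col4a5 (8 to 5).

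Genes called over the whole table numbered 2140 with edgeR and 4336 with DESeq2 for mural cells against all fibroblasts, 1784 and 3737 against endomysial, 1312 and 3031 against perimysial, 787 and 2068 for perimysial against endomysial, 14 and 787 for paramysial, 55 and 1005 for cluster 10, 687 and 2533 for mural against cluster 10, 830 and 1871 among endomysial clusters, and 0 and 115 for the muscles.

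Reversals of sign, given as log2 fold changes, were all of values that had not been called. For mural cells against all fibroblasts, Col4a2 was 0.042 with relative log expression factors and with DESeq2, 0.28 with cells weighted alike, 0.33 with equal numbers, 0.0056 without marker-positive cells and −0.12 to 0.0078 with a strain left out. Col4a5 was −0.29 to 1.23 with a strain left out, and Col4a6 was −1.12 without marker-positive cells. Against endomysial cells Col4a5 was −0.33 with plates and −0.53 to 1.69 with a strain left out. For perimysial against endomysial cells Col18a1 was 0.82 with no replicate block and −0.85 to 0.75 with a strain left out. For paramysial cells, Col4a1 was 0.052 with relative log expression factors and with DESeq2, 0.17 with no block, 0.21 without marker-positive cells and −0.48 to 0.24 with a strain left out. Col4a2 was 0.024 with both scalings, 0.28 with no block and −0.71 to 0.38 with a strain left out, and Col15a1 was 0.053, 0.042, 0.52 with no block, 0.29 without marker-positive cells and −0.86 to 0.84. For cluster 10, Col4a6 was 2.42 with no block, 2.90 with 10 or more cells and −2.66 to 2.90 with a strain left out. For mural cells against cluster 10, Col4a1 was −0.15 with 10 or more cells, −0.14 without marker-positive cells and −0.15 to 0.27 with a strain left out, Col4a5 was 0.42 and −3.03 to 0.98, Col4a6 was −0.68, and Col18a1 was 0.67 and −1.11 to 0.17. For the muscles Col4a3 was 2.96 without marker-positive cells. Over the other settings of single genes, 730 kept direction and side of the threshold, 54 lost a call and 29 gained one. Not run were 10 or more cells for paramysial cells, and plates or a strain left out for the muscles. At this depth a sum of 0 counts in a class and strain allowed up to 0.283 to 5.15 CPM.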
